A study of Saccharomyces cerevisiae with 6 samples.

Results

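The 26S proteasome, the protease that degrades ubiquitin-tagged proteins, was followed at the level of its mRNAs in yeast whose histone H2B carries alanine in place of lysine 37. The genes were chosen by name, from the annotation of the array, as the 32 listed subunits of the 20S core and the 19S regulatory particle together with *RPN4*, the transcription factor that activates them. Each of these 33 genes had 1 probe set among the 5498 probe sets that matched *Saccharomyces cerevisiae* genes. RNA came from 3 cultures of the mutant strain YKG007 (H2B K37A) and 3 cultures of the strain YKG001 (wild-type H2B), grown at the same time in YPD to mid-exponential phase at an OD600 of 1.0, and the RNA of each culture was hybridized to its own Affymetrix Yeast Genome 2.0 array. Both strains are MATa haploids in which the chromosomal gene pairs *HTA1*-*HTB1* and *HTA2*-*HTB2* are replaced by *LEU2* and *TRP1*, with the further alleles leu2D1, ura3-52, lys2D1, lys2-128d, his3D200 and trp1D63. A *HIS3* plasmid supplied the only H2A and H2B, pKG2 with Flag-htb1 (K37A) in YKG007 and pZS145 with Flag-HTB1 in YKG001, so the comparison is of 1 plasmid-borne mutant strain with its counterpart. All values are log2 signals after RMA, a procedure that gives all arrays the same distribution of probe signals, so they describe a gene relative to the other transcripts of its culture, and a share of cells and a level per cell cannot be told apart.

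The core particle is a barrel of stacked rings in which the outer alpha rings gate the entrance and the inner beta rings hold the proteolytic sites. The regulatory particle has a base, with a ring of ATPases that unfold substrates, and a lid that removes ubiquitin chains. In budding yeast the genes for nearly all of these subunits share a promoter element bound by Rpn4, and since Rpn4 is itself a short-lived substrate of the proteasome, low proteasome activity stabilises Rpn4 and raises the transcription of the subunit genes.

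Over the series, array medians of the *S. cerevisiae* probe sets lay between 11.05 and 11.10, and arrays of a strain correlated across genes (not independent points) with Pearson's r of 0.994 to 0.998 for the mutant and 0.997 to 0.998 for wild type, against 0.984 to 0.996 for pairs of arrays from different strains. All 5 genes specific to a cells (*MFA1*, *MFA2*, *STE2*, *STE6* and *BAR1*) had mean signals above 6.29, the 95th percentile of named probe sets outside *S. cerevisiae*. Of 4 genes specific to alpha cells, *MF(ALPHA)1* lay below that value and 3 lay above it. Of all 5498 probe sets 5411 lay above it, so the value does not tell the cell types apart. Mean signals were 11.83 to 13.44 for the a-cell genes and 5.76 to 10.21 for the alpha-cell genes. The arrays do not read the codon of lysine 37, so they do not check the genotype. All 32 subunits and *RPN4* had signals above that background, and the mean signals of the subunits, 12.49 to 13.54, fell between the 81.3 and 93.3 percentiles of all probe sets. Signals this high can be compressed by the array, and they are not compared between genes, whose probes differ.

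No proteasome subunit gene passed the test between the strains. With limma and Benjamini-Hochberg adjustment over all 5498 probe sets, 0 of 32 subunits had an adjusted p under 0.05 (adjusted p = 0.236 to 0.981), where 14.5% of all probe sets were called, 6.44% higher and 8.08% lower in H2B K37A cells. None of the 32 had an unadjusted p under 0.05 either, which 35% of all probe sets had. Among the 628 other probe sets within the signal range of the subunits 7.8% were called. The subunits had a median log2 difference of -0.017 (K37A minus wild type), a ratio of 0.988, beside a median of 0.0020 over all probe sets. Their differences ran from -0.10 to 0.03, and 28 of 32 lay within 0.05 of 0. The SD of the differences was 0.030 across the subunits, 0.14 across the other probe sets of that signal range and 0.21 across all probe sets.

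A missed threshold does not show that levels were the same. The confidence intervals give the size of change in array signal that the data leave possible. Each interval is for 1 gene at a time, and compression of high signals could hide a larger change in transcript. The 95% interval of every subunit included 0 and lay within 1.2-fold in both directions, the outermost bounds being a K37A to wild-type ratio of 0.850 for *PRE9* and 1.09 for *RPT2*. Of all probe sets 59.6% had an interval within 1.2-fold, and of the other probe sets in the signal range of the subunits 81.4%. With single arrays left out, at most 1 of the 32 intervals reached beyond 1.2-fold, with a lowest bound of 0.820 and a highest bound of 1.12.

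**Figure D1:**
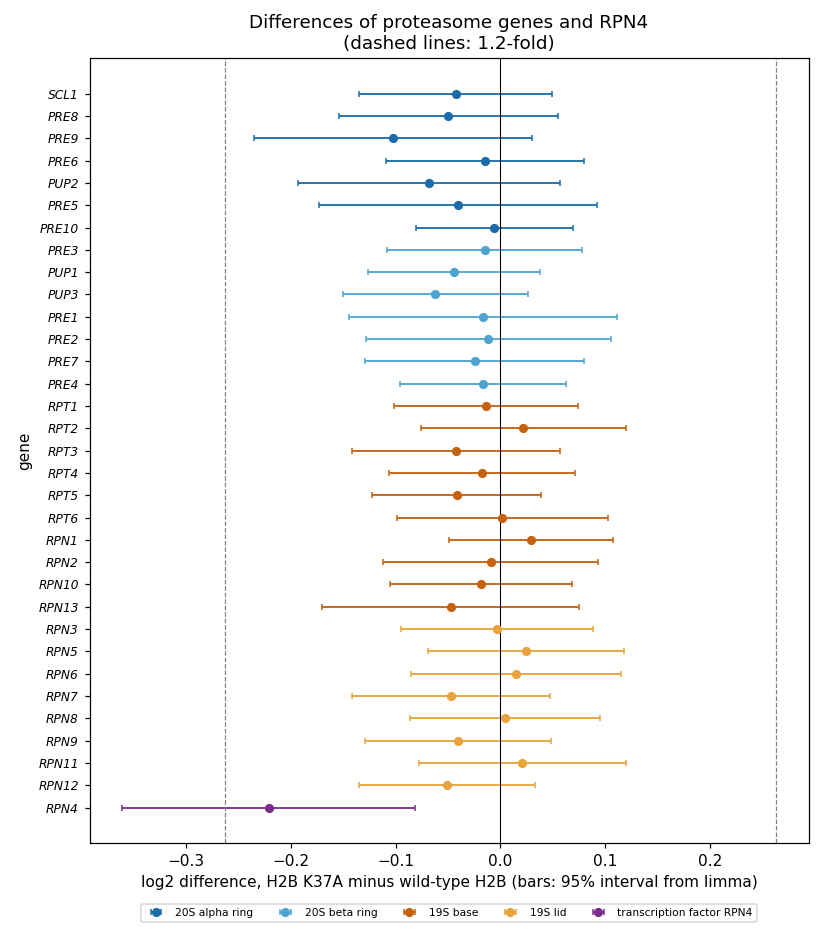
Log2 difference (H2B K37A minus wild-type H2B, x axis) of each of the 32 subunit genes and *RPN4* (y axis, coloured by subcomplex), with 95% intervals from limma on 3 arrays per strain and dashed lines at 1.2-fold. Every subunit interval crosses 0 and stays inside the dashed lines, while the interval of *RPN4*, -0.36 to -0.08, lies below 0.

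The alpha ring forms the gated end of the core particle. *PRE9* (YGR135W), the one gene of the core particle that yeast can lose and survive, had log2 signals of 12.65, 12.60 and 12.51 on the H2B K37A arrays, against 12.77, 12.68 and 12.63 on the wild-type arrays. Its difference of -0.10 (limma, adjusted p = 0.236, standard error 0.055) was the furthest from 0 of all subunits, yet 53.8% of all probe sets had a difference no larger, and the highest mutant array lay above the lowest wild-type array. *PUP2* (YGR253C) averaged 12.88 ± 0.057 in H2B K37A cells and 12.95 ± 0.074 in wild-type cells (SD, n = 3 each), and *PRE8* (YML092C) averaged 12.68 ± 0.049 in H2B K37A cells and 12.73 ± 0.048 in wild-type cells (SD, n = 3 each). The difference of *PUP2*, -0.07, lay in size between its mutant and wild-type SDs. That of *PRE8*, -0.05, was about as large as its SDs. *SCL1* (YGL011C) and *PRE5* (YMR314W) differed by -0.043 and -0.041. *PRE6* (YOL038W) and *PRE10* (YOR362C) differed by -0.015 and -0.0057, and *PRE10* was also among the most even genes, with an SD of 0.0069 between H2B K37A cultures and 0.013 between wild-type cultures. All 7 alpha genes thus had a mean below that of wild type, with a median of -0.043. On no alpha gene did the arrays of the strains separate. They separated for 42.1% of all probe sets and 37.3% of the others in the signal range of the subunits.

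The beta ring carries the active sites, in *PRE3* (YJL001W, caspase-like), *PUP1* (YOR157C, trypsin-like) and *PRE2* (YPR103W, chymotrypsin-like). *PRE2*, with the brightest probe set of the subunits, had 13.58, 13.58 and 13.46 on the H2B K37A arrays and 13.60, 13.56 and 13.49 on the wild-type arrays, a difference of -0.012 (95% interval -0.13 to 0.11). *PRE3* averaged 12.48 ± 0.034 in H2B K37A cells and 12.50 ± 0.040 in wild-type cells (SD, n = 3 each). For both of these catalytic genes the arrays overlapped throughout. *PUP1* had 12.79, 12.79 and 12.75 on the H2B K37A arrays and 12.84, 12.80 and 12.83 on the wild-type arrays, a difference of -0.044 (limma, adjusted p = 0.406, standard error 0.034). Every mutant array of *PUP1* lay below every wild-type array, by a narrow margin. The same held for the structural subunit *PUP3* (YER094C), with 13.08, 13.07 and 13.01 on the H2B K37A arrays and 13.13, 13.08 and 13.13 on the wild-type arrays, a difference of -0.062 (limma, adjusted p = 0.278, standard error 0.037). The other structural subunits *PRE1* (YER012W), *PRE7* (YBL041W) and *PRE4* (YFR050C) differed by -0.017, -0.024 and -0.017, and their arrays overlapped. The 7 beta genes had a median of -0.017, and all 7 means were below those of wild type.

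The base holds the ATPases and the main ubiquitin receptors. Of the 6 ATPase genes, *RPT5* (YOR117W) had 12.78, 12.74 and 12.77 on the H2B K37A arrays and 12.83, 12.80 and 12.78 on the wild-type arrays, a difference of -0.042 (limma, adjusted p = 0.423, standard error 0.034). Like *PUP1* and *PUP3* it had no overlap between strains, a pattern found in 3 of 32 subunits, in 42.1% of all probe sets and in 37.3% of the other probe sets in the signal range of the subunits. *RPT3* (YDR394W) differed by -0.042, *RPT4* (YOR259C) by -0.018 and *RPT1* (YKL145W) by -0.014. *RPT2* (YDL007W) and *RPT6* (YGL048C) differed by 0.022 and 0.0017 in the other direction. *RPN1* (YHR027C), a scaffold that binds ubiquitin and its carriers, had 13.51, 13.50 and 13.49 on the H2B K37A arrays, against 13.50, 13.46 and 13.45 on the wild-type arrays, and its 0.029 was the highest difference among the subunits (95% interval -0.05 to 0.11). *RPN2* (YIL075C), the other large scaffold, differed by -0.0093. The ubiquitin receptors *RPN10* (YHR200W) and *RPN13* (YLR421C) differed by -0.018 and -0.047, and *RPN13* had the widest spread between mutant cultures in the base, with an SD of 0.079. The 10 base genes had a median of -0.016, 3 with positive and 7 with negative differences.

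The lid contains the deubiquitinase *RPN11* (YFR004W) and its partner *RPN8* (YOR261C). *RPN11* averaged 12.70 ± 0.053 in H2B K37A cells and 12.68 ± 0.030 in wild-type cells (SD, n = 3 each), a difference of 0.021, and *RPN8* differed by 0.0044. Among the scaffolding subunits of the lid, *RPN5* (YDL147W) and *RPN6* (YDL097C) differed by 0.024 and 0.015, and *RPN3* (YER021W) by -0.0032. *RPN12* (YFR052W), *RPN7* (YPR108W) and *RPN9* (YDR427W) had the lowest values of the lid, -0.051, -0.047 and -0.041. The 8 lid genes divided evenly, 4 with positive and 4 with negative differences, around a median of 0.00055. The standard errors of all 32 subunits were 0.031 to 0.055, and differences between subunits were not tested.

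Single arrays held the same place for many of the subunits. H2B K37A replicate 3 was the lowest of the 6 arrays for 22 of 32 subunits. These included all 14 genes of the core particle and 8 of 18 genes of the regulatory particle. That array was the lowest for 27.1% of all probe sets and the highest for 31.6%. Wild-type replicate 1 was the highest for 21 of 32 subunits, 9 of the core and 12 of the regulatory particle, and for 29.7% of all probe sets. Centred on the 6 arrays of each gene, the mean of the 14 core genes was 0.016, -0.00049 and -0.07 on the H2B K37A arrays and 0.05, 0.0075 and -0.0026 on the wild-type arrays. The mean of the 18 regulatory particle genes was 0.0048, 0.0033 and -0.026 on the H2B K37A arrays and 0.042, -0.016 and -0.0083 on the wild-type arrays. The array means of the strains overlapped in both particles. All 14 core genes had negative differences in the full comparison, but 8 did without H2B K37A replicate 3, 8 did without wild-type replicate 1, 7 did without both (an alternative added once the values were known), 7 did with array weights and 10 did when arrays were centred on their median. The sign that the core genes shared was thus not kept by all of them without either of those arrays.

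**Figure D2:**
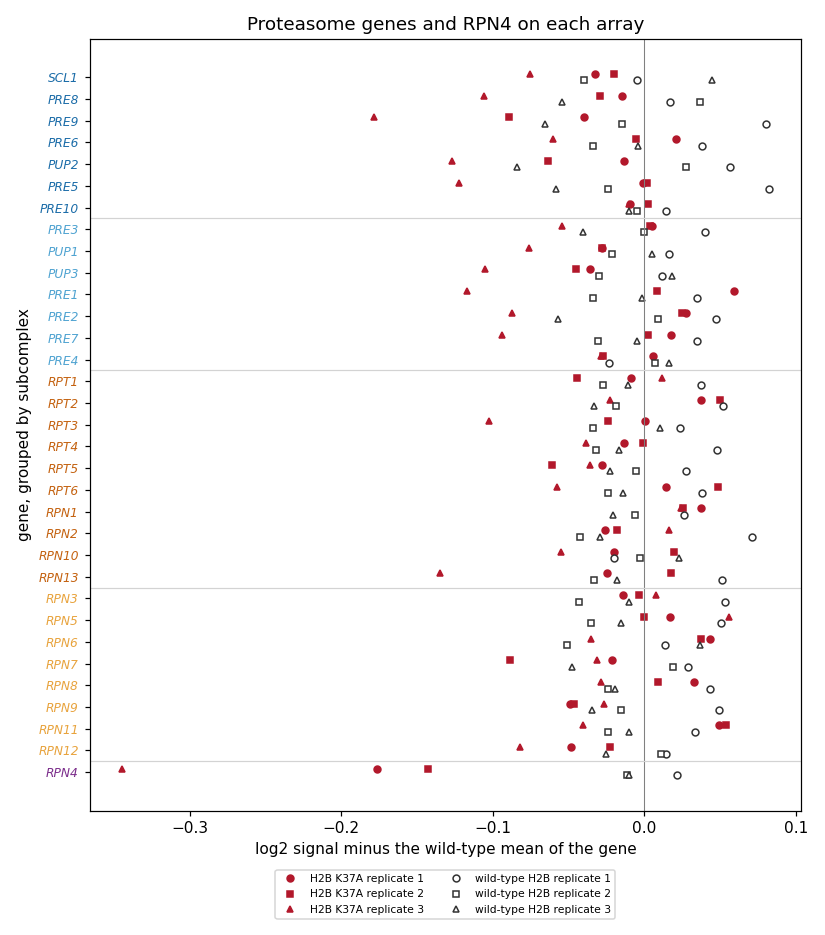
Log2 signal of each gene on each of the 6 arrays, as the distance from the wild-type mean of the gene (x axis), with genes on the y axis grouped by subcomplex, filled red symbols for H2B K37A and open symbols for wild-type H2B. Mutant replicate 3 (red triangles) is the lowest array for 22 of 32 subunits, and only for *PUP1*, *PUP3*, *RPT5* and *RPN4* do all red symbols lie left of all open ones.

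*RPN4* (YDL020C), the activator of these genes, stood apart from them. Its log2 signal was 12.64, 12.68 and 12.48 on the H2B K37A arrays and 12.84, 12.81 and 12.81 on the wild-type arrays, so that every mutant array lay below every wild-type array, with a gap of 0.13 between the nearest arrays. No overlap was found in 42.1% of all probe sets and in 37.3% of the others in the signal range of the subunits. The means of *RPN4* were 12.60 ± 0.11 in H2B K37A cells and 12.82 ± 0.019 in wild-type cells (SD, n = 3 each). The difference of -0.22, a ratio of 0.858 (95% interval 0.779 to 0.945), narrowly missed the threshold (limma, adjusted p = 0.0516, standard error 0.058), and 19.1% of all probe sets differed by as much or more. Over the alternative settings the adjusted p of *RPN4* from limma ran from 0.0214 to 0.142 and its difference kept its sign. Without H2B K37A replicate 3, its lowest array, the difference was -0.16 (adjusted p = 0.0499 from limma), and without that array and wild-type replicate 1 it was -0.15. Set relative to the mean of the 32 subunits on the same array, *RPN4* was at -0.27, -0.23 and -0.38 on the H2B K37A arrays. It was at -0.11, -0.09 and -0.089 on the wild-type arrays, a difference of -0.20, nearly that of *RPN4* alone. The centred subunit mean was -0.011 over the H2B K37A arrays and 0.011 over the wild-type arrays. Setting *RPN4* against it could therefore change little, and the relative difference was not tested.

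*RPN4* was lowest on H2B K37A replicate 3 and highest on wild-type replicate 1. So were the means of the core genes, the regulatory particle genes and the accessory factors described below. The same held for the mean of the genes that respond to the general stress factors Msn2 and Msn4. The centred mean of 14 such genes was -0.094, -0.16 and -0.38 on the H2B K37A arrays and 0.33, 0.19 and 0.11 on the wild-type arrays, beside -0.066, -0.032 and -0.23 for *RPN4* on the H2B K37A arrays and 0.13, 0.099 and 0.10 on the wild-type arrays. Of these 14 genes 7 passed, all of them lower in H2B K37A cells (8.08% of all probe sets were called lower), with a median of -0.35 over the 14, and the largest differences were those of *DDR2* (-0.97), the glycogen phosphorylase *GPH1* (-0.97), the repressor *XBP1* (-0.84) and *RTN2* (-0.67). *HSP12*, named after its values were seen, was the 1 gene of the list with a positive difference, 0.029, and was highest on H2B K37A replicate 2. Not every list had this order of arrays. The mean of the 7 genes of Rpn4 turnover and activation, described below, was highest on H2B K37A replicate 3, at 0.080. That of the 29 ubiquitin genes was lowest on wild-type replicate 3, at -0.020, beside -0.0032 on H2B K37A replicate 3. The part of this stress gene difference in the level of *RPN4* was not tested.

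**Figure D3:**
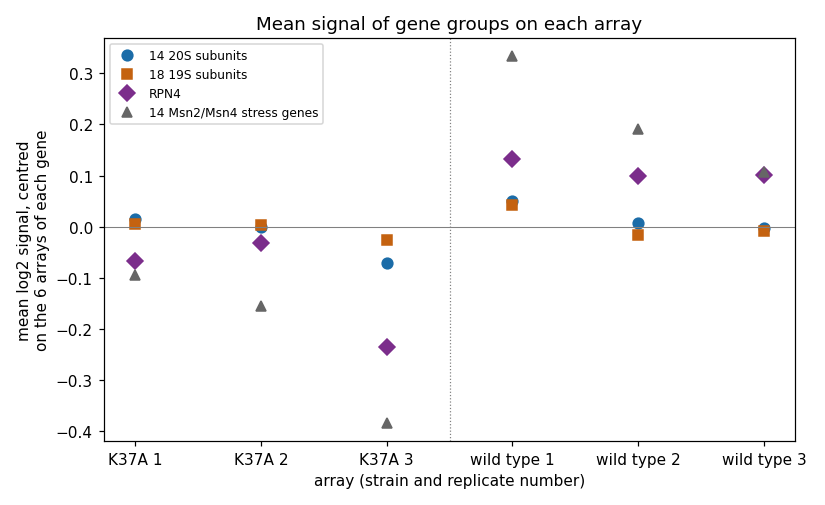
Mean log2 signal of the 14 core genes, the 18 regulatory particle genes, *RPN4* and 14 Msn2/Msn4 stress genes, centred on the 6 arrays of each gene (y axis), on each array (x axis, H2B K37A arrays left of wild-type arrays). The subunit means stay between -0.07 and 0.05, and *RPN4* is below 0 on every mutant array and above 0 on every wild-type array. H2B K37A replicate 3 is the lowest array and wild-type replicate 1 the highest for *RPN4* and for each group shown.

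The genes that control *RPN4* are the ubiquitin ligase *UBR2* with its partners *MUB1* and *RAD6*, which mark the Rpn4 protein for degradation, and the factors *YAP1*, *PDR1*, *PDR3* and *HSF1*, which can activate the *RPN4* promoter. None of the 7 passed (adjusted p = 0.243 to 0.862 from limma), beside 14.5% of all probe sets. None had an unadjusted p under 0.05, beside 35% of all probe sets. The arrays overlapped for all 7, where 42.1% of all probe sets had no overlap. With so few genes these counts say little, and the median was 0.050. *PDR3* differed by 0.096, *HSF1* by 0.089, *UBR2* by -0.061 and *YAP1* by 0.054.

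Chaperones and accessory factors of the proteasome assemble the particle, bind it or bring it into the nucleus. Their differences spread more widely than those of the subunits, but less than those of all probe sets (SD 0.21). Their mean signals, 10.01 to 12.25, were also lower than those of the subunits, 12.49 to 13.54. Of 18 such genes, the small lid subunit *SEM1* counted among them, 0 passed, beside 14.5% of all probe sets, and 3 had an unadjusted p under 0.05, beside 35% of all probe sets, with a median of -0.020 and an SD of 0.14 across genes. *NAS2* (YIL007C), a chaperone for assembly of the base, had 10.70, 10.62 and 10.32 on the H2B K37A arrays and 11.00, 10.90 and 10.85 on the wild-type arrays. Its groups did not overlap, and its difference of -0.37, a ratio of 0.774, did not pass (limma, adjusted p = 0.0549, standard error 0.10). *TMA17* (YDL110C), another base chaperone, had 11.14, 10.95 and 10.67 on the H2B K37A arrays and 11.48, 11.18 and 11.05 on the wild-type arrays, a difference of -0.32 with overlapping arrays (adjusted p = 0.183 from limma). *HSM3* (YBR272C), also a chaperone of the base, differed by -0.15, with all mutant arrays lower (adjusted p = 0.0556 from limma). *ECM29* (YHL030W), a protein that joins core and regulatory particles, had the opposite sign. Its difference was 0.19, with all mutant arrays higher (adjusted p = 0.0756 from limma). All mutant arrays were lower for 3 of the 18 genes and higher for 1. Of all probe sets 42.1% had no overlap. For *NAS2* and *TMA17*, as for the stress genes, H2B K37A replicate 3 was the lowest array and wild-type replicate 1 the highest, and whether that bears on these differences was not tested.

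The steps before the proteasome were called at a share close to that of the genome. Of 29 genes for ubiquitin, its conjugation and removal, the shuttle proteins and the Cdc48 segregase, 2 were higher, 2 were lower and 25 did not pass (6 at an unadjusted p under 0.05, beside 35% of all probe sets), which is 4 of 29 called beside 14.5% of all probe sets, and the median was -0.0027. *RFU1* (YLR073C), an inhibitor of the deubiquitinase Doa4, had 10.20, 10.39 and 10.66 on the H2B K37A arrays and 9.86, 10.03 and 9.88 on the wild-type arrays. It rose by 0.49, a ratio of 1.41 (limma, adjusted p = 0.0426, standard error 0.12), with no overlap between strains. The arrays overlapped for 19 of the 29 genes, and 42.1% of all probe sets had no overlap. *DOA4* (YDR069C), the enzyme that recovers ubiquitin from proteins bound for the vacuole, had 10.72, 10.74 and 10.72 on the H2B K37A arrays and 10.86, 10.87 and 10.88 on the wild-type arrays, and it fell by 0.14 on the log2 scale (ratio 0.906, adjusted p = 0.0353 from limma). *HRD1* (YOL013C), the ligase for misfolded proteins of the endoplasmic reticulum, had 11.04, 10.98 and 10.91 on the H2B K37A arrays and 11.27, 11.19 and 11.22 on the wild-type arrays. It fell by 0.25 (ratio 0.841, adjusted p = 0.0269 from limma). *UBR1* (YGR184C), the ligase that recognises destabilising protein N termini, had 11.43, 11.47 and 11.46 on the H2B K37A arrays and 11.35, 11.24 and 11.31 on the wild-type arrays and rose by 0.15 (ratio 1.11, adjusted p = 0.0497 from limma). The number of calls in this list was 2 without H2B K37A replicate 1 or 3, and 0 without H2B K37A replicate 2, without any one of the wild-type arrays or with all probe sets of the array tested. With the replicate number as a block it was 2.

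**Figure D4:**
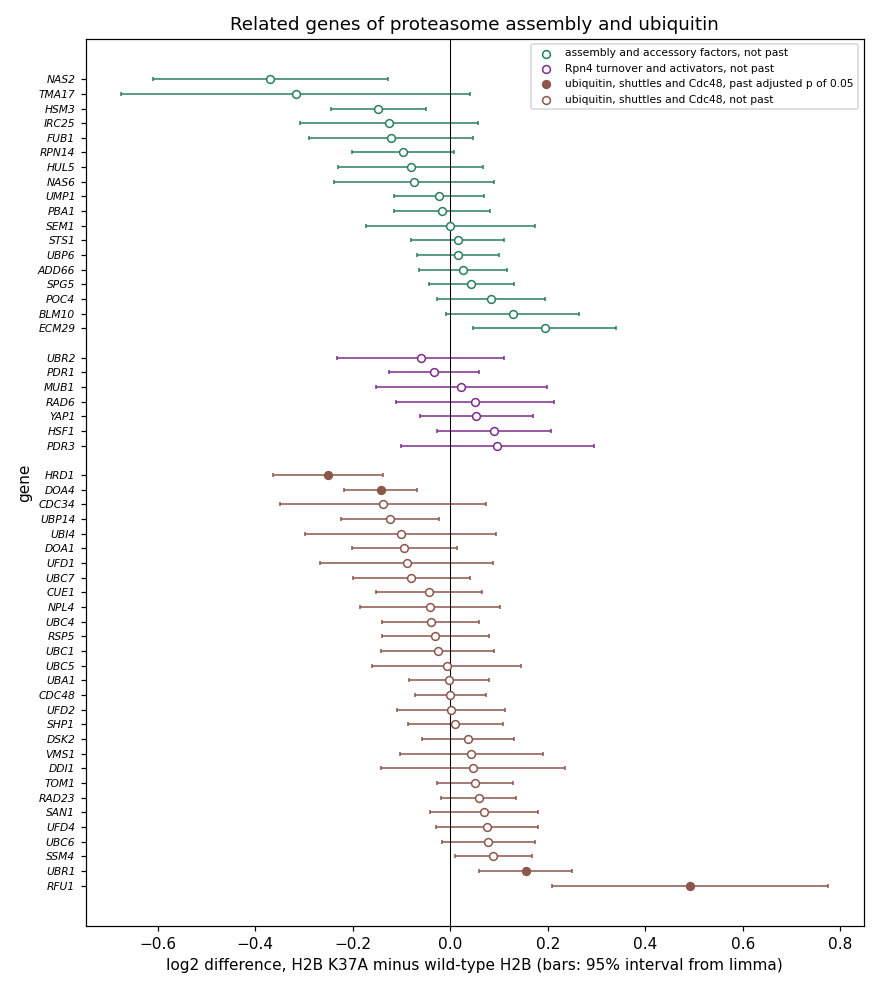
Log2 difference (H2B K37A minus wild-type H2B, x axis) with 95% intervals from limma of 18 assembly and accessory factors, 7 genes of Rpn4 turnover and activation and 29 genes of ubiquitin, shuttles and Cdc48 (y axis, sorted within each group). Filled points passed an adjusted p of 0.05, which *RFU1*, *UBR1*, *DOA4* and *HRD1* did and the other genes did not.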

How the data were processed

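RNA of 3 H2B K37A and 3 wild-type H2B cultures was measured on 6 arrays. The labels give histones as the source but total RNA as the molecule, and the methods describe RNA. The authors deposited log2 signals, made with RMA in Affymetrix Expression Console per the labels, with versions and build not given in the sources used here. Of 10928 probe sets, 7244 carry 1 gene symbol, 1 several and 3683 none. The 5498 matched by gene identifier to assembly R64 (5449 genes) were tested, without a filter. All 110 listed genes had 1 probe set each.

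limma 3.58.1 in R 4.3.3 fitted strain as the only term (lmFit, eBayes, two-sided, Benjamini-Hochberg over 5498 probe sets, threshold 0.05). The fit was tested on simulated data. The changes put into them were larger than those of the subunits, and no shift was shared by the genes of an array. That test therefore does not bear on the subunit result. The number of arrays limits precision. An exact permutation test of 3 against 3 arrays cannot go below p = 0.1, so none is given. Members and lists were chosen with earlier results of these data known. All 33 members are named, and in each related list the 4 genes with the largest difference, with other genes named only in counts or roles. Alternatives were other probe sets, a background filter, quantile normalization, median centring, a replicate block, arrays left out, an intensity trend, array weights and the mean of probe sets per gene. Promoter sequences were not used here.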

Additional observations from a re-analysis of the deposited data

How the results depend on the processing

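Over 15 alternatives, 0 of 32 subunits passed the adjusted p of 0.05 from limma in each that was fitted (1 had an unadjusted p under 0.05 with the replicate block, none in the others). The median of the subunits was -0.032 to 0.015 with arrays left out. Its highest value of 0.015 was the one without wild-type replicate 1 and H2B K37A replicate 3 together. The medians of the accessory and ubiquitin lists stayed within -0.038 to 0.013 in the alternatives computed for them. Those did not include the one without both of these arrays, all probe sets or the intensity trend. Every subunit has 1 probe set, so a mean over probe sets changed nothing. *RPN4* differed by -0.26 to -0.15 with arrays left out. It passed without H2B K37A replicate 3 (-0.16, adjusted p = 0.0499 from limma), with probe sets filtered on background (-0.22, adjusted p = 0.0498 from limma), with an intensity trend (-0.22, adjusted p = 0.0272) and with array weights (-0.16, adjusted p = 0.0214). Of the 18 accessory genes 4 passed with array weights, 2 with the replicate block, 1 each with an intensity trend and without H2B K37A replicate 1 or 3, and 0 otherwise. Of the 29 ubiquitin genes 7 passed with array weights, 3 with median centring, and 2 with an intensity trend. Over the genome the calls were 798, but 281 with all probe sets of the array and 1956 with array weights, and 2 to 1140 with single arrays left out, the lowest without wild-type replicate 2 and the next, 7, without H2B K37A replicate 2.

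Subunits near 0 changed sign, never past the threshold, in 49 of 416 values. These values do not include the alternative without wild-type replicate 1 and H2B K37A replicate 3 together. In that alternative 7 core genes and 6 regulatory particle genes had negative differences, against 14 and 11 in the full comparison. With arrays centred on the median the log2 differences were 0.00075 for *PRE6*, 0.010 for *PRE10*, 0.00067 for *PRE3*, 0.0041 for *PRE2*, 0.0020 for *RPT1*, 0.0065 for *RPN2* and 0.013 for *RPN3*. With array weights they were 0.0049 for *PRE6*, 0.0052 for *PRE5*, 0.0018 for *PRE10*, 0.0040 for *PRE3*, 0.018 for *PRE1*, 0.021 for *PRE2*, 0.0077 for *PRE7*, 0.0050 for *RPT4*, 0.0074 for *RPN10*, 0.012 for *RPN13* and 0.0083 for *RPN3*. With quantile normalization again they were 0.020 for *PRE10*, 0.0068 for *PRE1*, 0.0055 for *RPT4*, -0.012 for *RPT6* and 0.0062 for *RPN2*. With single arrays left out the ranges were -0.033 to 0.0077 for *PRE6*, -0.070 to 0.00054 for *PRE5*, -0.011 to 0.0015 for *PRE10*, -0.035 to 0.0050 for *PRE3*, -0.055 to 0.034 for *PRE1*, -0.040 to 0.026 for *PRE2*, -0.045 to 0.010 for *PRE7*, -0.027 to 0.0049 for *RPT1*, -0.033 to 0.0065 for *RPT4*, -0.022 to 0.032 for *RPT6*, -0.031 to 0.026 for *RPN2*, -0.025 to 0.023 for *RPN3*, -0.010 to 0.040 for *RPN6* and -0.0099 to 0.026 for *RPN8*. The ligase gene *UBR2*, not a subunit and not among the 416 values, ranged from -0.11 to 0.0021. The cause was not tested.

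The correlation of same-numbered deviations from the strain means, across genes, was 0.40, -0.29 and 0.23 for numbers 1, 2 and 3. With 3 arrays per strain, whose deviations sum to 0, these values cannot decide whether the replicate numbers pair the arrays. With the replicate block the median of the subunits was -0.017, *RPN4* had an adjusted p of 0.0527 and 947 probe sets were called by limma. The highest correlation with a wild-type array was not with its own number for H2B K37A replicates 2 and 3.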
